A study of Mus musculus with 8 samples.

Results

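Most of the genes described here encode the factors that start and extend translation. The list also takes in 4 Argonaute genes under older names and Eef1e1, a protein of the aminoacyl-tRNA synthetase complex, which are not such factors. The genes were taken as every non-control array probe whose gene name in the scanner files begins with Eif, Eef or Pabpc followed by a digit, without Eif1b and Eif2s3y. This gave 146 probes for 64 genes among 41101 probes. Of these, 110 probes for 60 genes were bright enough to be tested, among 18253 tested probes in all. The genes were measured by RNA immunoprecipitation (RIP) with an antibody against DAZL, a germ-cell RNA-binding protein. In RIP the protein is captured by its antibody, and the RNA attached to it (the IP) is set beside RNA kept from the same lysate before capture (the input). Lysates were made from lots of 50 gonads of E14.5 mouse embryos of strain MCH, XX or XY, with no other allele or agent named. The 4 groups of 2 arrays each were XX input, XX IP, XY input and XY IP.

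Translation of most mRNAs begins when eIF4E binds the cap and, with the scaffold eIF4G and the helicase eIF4A, brings in the small ribosomal subunit. That subunit carries eIF1, eIF1A, eIF3 and eIF5, and eIF2 delivers the initiator tRNA to it. eIF2B reloads eIF2 with GTP. eEF1A then brings each aminoacyl-tRNA to the ribosome, the eEF1B subunits recharge eEF1A, and eEF2 moves the ribosome along. Poly(A)-binding proteins join the tail of the mRNA to its cap. DAZL is known to promote translation of its target mRNAs in germ cells through poly(A)-binding protein.

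Levels are log2 signals relative to the 75th percentile of each array, so that 0 is the brightness of the probe at that percentile. That percentile lay at 77.4 to 173 scanner units for inputs, but at 6.83 to 13.1 for IPs. Each input array had 16738 to 20414 probes well above background, and each IP array 6073 to 9480. The dimmest probe above background had a level of -3.59 to -2.34 in the input groups, but of 0.03 to 1.02 in the IP groups. A low IP level is therefore often only an upper limit. Folds are given as "at least" where a probe was not above background on either IP array. The XX arrays lay on 1 slide and the XY arrays on another, so sex and slide cannot be told apart, whereas each IP was compared with inputs of its own slide. No IP with a control antibody was analysed here. Nothing in the labels says that the arrays of a group came from separate dissections, and p-values measure only the spread between these samples, which may be technical.

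On the 75th percentile scale and with the filter on dim probes, more factor probes were depleted from the DAZL IP than enriched in it, an order that turned with no filter (45 enriched and 18 depleted in XX, 39 and 19 in XY) and, in XX, without the first XX IP (14 and 10) and among probes above background on both IPs (10 and 9). A probe was called enriched or depleted where the limma test gave an adjusted p under 0.05 and the change was at least 4-fold. In XX gonads 14 of the 110 factor probes (12.7%) were enriched, against 14.0% of all tested probes, and 18 (16.4%) were depleted, against 9.92%. In XY gonads 8 (7.27%) were enriched, against 10.2%, and 19 (17.3%) were depleted, against 7.69%. The 7 tested Argonaute probes gave 3 of the enriched probes in each sex and 0 of the depleted, and Eef1e1 gave 1 of the enriched in each. With no minimum fold, 21 factor probes (19.1%) passed as higher in the XX IP and 43 (39.1%) as lower, against 25.9% and 22.8% of all tested probes. In XY the counts were 15 (13.6%) higher and 43 (39.1%) lower, against 20.2% and 20.6%. The factor probes had a median log2 change from input to IP of -0.82 in XX and -0.66 in XY, where all tested probes had 0.09 and -0.04. Where the probe had also to be above background on both IP arrays, 10 enriched and 9 depleted probes were left in XX, against 8.19% and 2.17% of all tested probes, and 6 and 8 in XY, against 6.05% and 1.74%. With that condition and no minimum fold, 15 factor probes passed as higher in XX, against 13.3%, and 9 in XY, against 10.1%.

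The balance between the directions depended on how the arrays were scaled. Enriched against depleted probes stood at 14 to 18 in XX and 8 to 19 in XY on the 75th percentile. Scaled to the 50th percentile they stood at 1 to 70 and 3 to 64, after quantile normalization at 10 to 28 and 7 to 22, scaled to the probes above background on all 8 arrays at 11 to 26 and 7 to 26, and with normexp background correction at 0 to 35 and 1 to 32. The median of all tested probes moved to -1.92 in XX and -1.90 in XY on the 50th percentile, to -0.74 and -0.73 after quantile normalization, and to -0.34 and -0.36 on the commonly detected probes. The factor probes' median stayed below that of all tested probes in both sexes after quantile normalization and with normexp, whereas the other scalings shift all probes alike and cannot move that gap. The directions given below are relative to the 75th percentile.

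Gonads hold germ cells and somatic cells, and in such bulk lysates fewer cells of a type and less RNA per cell cannot be told apart. Of 10 tested germ-cell markers 7 were higher in the XX IP, against 6 for XY, with 5 of them enriched in each, and 1 was lower in each. The XX counts include Nanos2, called enriched with no XX array above background, and Pou5f1, called higher with 1 XX input and no XX IP above it. Of the somatic lists, both tested endothelial markers were lower in each sex, 3 of 4 tested erythroid markers were lower in XX and 2 of 4 in XY, and both tested pregranulosa markers were lower in XX, whereas in XY Wnt4 was lower and Fst passed as higher with no XY array above background (2.16 ± 0.53, adjusted p = 0.00726). Of 4 tested Sertoli markers Amh and Dhh were higher in XX (2.87 ± 0.44 and 1.79 ± 0.56), with XX inputs and IPs at background, and 2 were lower in XY. Of 4 tested Leydig markers 1 was lower in XX and 3 in XY, and of 3 tested macrophage markers Cd68 alone passed, as higher in XX (1.86 ± 0.46). The Sertoli, pregranulosa, endothelial and macrophage markers were above background on both IPs in 0 cases in either sex, and the Leydig markers in 0 in XX and 1 in XY. The part of cell composition in the lower IP levels of the factors was not tested.

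Single genes moved far in both directions. Each gene is given by its brightest tested probe. In XX 8 of the 60 tested genes were higher in the IP, 6 of them enriched, and 28 were lower, 15 of them depleted. In XY 8 were higher, 4 of them enriched, and 27 were lower, 13 of them depleted. Of all tested probes, dim ones included, 25.9% were higher and 22.8% lower in XX, and 20.2% and 20.6% in XY. Bright probes were lower more often than dim ones, so that these shares are not a like comparison for brightest probes, here or in the family counts below. By probe 19.1% of the factor probes were higher and 39.1% lower in XX, and 13.6% and 39.1% in XY. The genes enriched in both sexes were Eif5a2, Eef1e1, Ago4 and Eif1a, while Eif4e and Eif5 were enriched in XX and higher, but under 4-fold, in XY, where their sign turned on the 50th percentile and with normexp. Under those 2 settings the 6 genes kept their sign in XX, at 0.31 to 1.45 and 0.32 to 1.29, so that none of them stayed 4-fold there, and in XX only Ago4 and Eif5a2, both with normexp, kept an adjusted p under 0.05. In XY Eif5a2 and Eef1e1 kept it under both settings, Ago4 with normexp alone and Eif1a under neither. The 8 genes depleted in both sexes were Eif3f, Eif3g, Eef1b2, Eef1d, Eef2, Eif5b, Eif2b4 and Eif4e2. Of the genes that passed the test in either direction, 6 were higher in both sexes, 23 were lower in both, and 0 were higher in one and lower in the other. The same counts over all tested probes are not given, so that these cannot be set against the array at large.

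**Figure D1:**
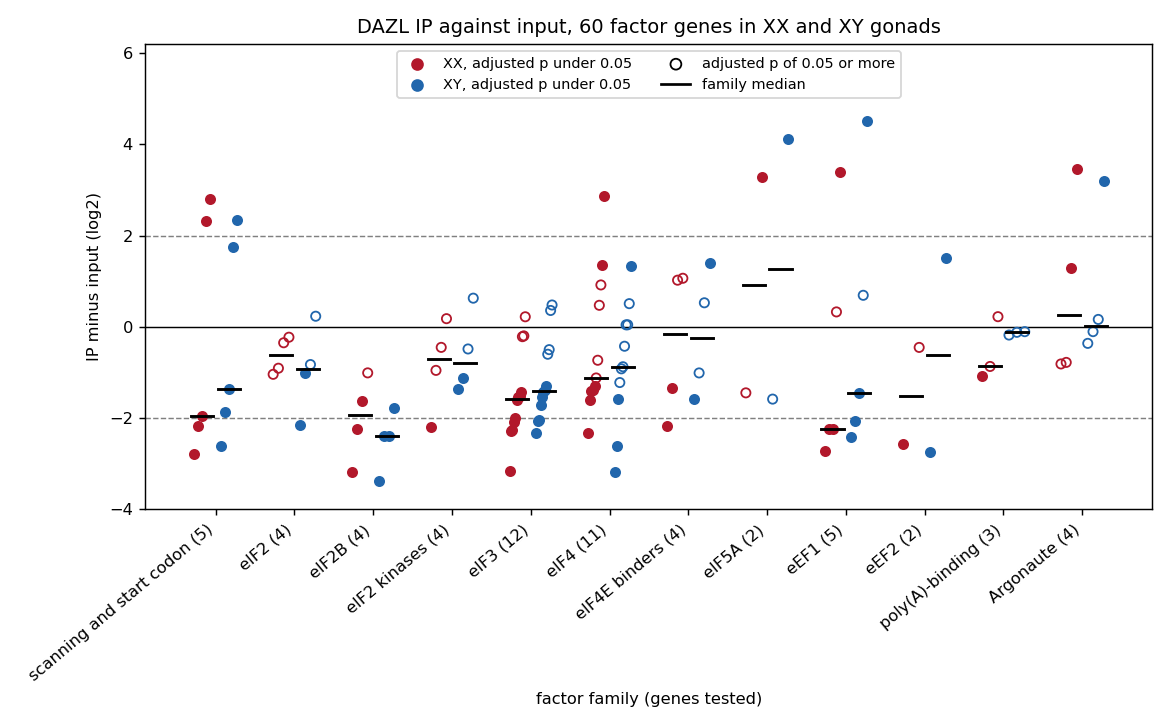
Difference between DAZL IP and input (log2, y axis) for each tested factor gene by family (x axis), XX in red and XY in blue. Filled points passed the limma test at an adjusted p under 0.05, open points did not, bars mark family medians and dashed lines mark 4-fold. All 12 eIF3 genes lie below 0.5 and most are filled and below 0, whereas Eif5a2, Eef1e1 and Ago4 stand above 3 in both sexes within families whose other members do not pass 4-fold enrichment.

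Among the scanning and start-codon factors, which find and check the first codon, 2 of 5 genes were higher in the IP and 3 were lower, the same split in each sex. The shares of all tested probes were 25.9% higher and 22.8% lower in XX, and 20.2% and 20.6% in XY. The family median was -1.95 in XX and -1.35 in XY. Eif1a, an autosomal gene for eIF1A, which helps the small subunit scan, had levels of 1.78 and 1.86 in the XX inputs and 4.24 and 5.00 in the XX IPs. In XY it was at 1.96 and 2.22 in the inputs and 4.13 and 4.76 in the IPs. Both IPs were above both inputs in each sex. Eif1a was 6.98-fold higher in the XX IP (log2 2.80 ± 0.43, SE, adjusted p = 0.000381) and 5.11-fold higher in the XY one (2.35 ± 0.43, adjusted p = 0.00151), of which 0.49 was left in XY on the 50th percentile and 0.43 with normexp, neither passing. Eif1ax, its X-linked counterpart (named Eif1ay in the files, with a probe on the X chromosome), went the other way. Its levels were 5.12 and 5.33 in the XX inputs, 2.80 and 3.74 in the XX IPs, 5.45 and 5.69 in the XY inputs and 3.84 and 4.60 in the XY IPs. The IPs were below the inputs in both sexes, by -1.95 ± 0.45 in XX (adjusted p = 0.00423), against -1.35 ± 0.45 in XY (adjusted p = 0.0319). Without the first XY IP the XY call was lost (-0.97, adjusted p = 0.131).

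Eif5, which makes eIF2 hydrolyse its GTP at the start codon, was at 4.83 and 4.90 in the XX inputs, 6.90 and 7.46 in the XX IPs, 4.29 and 4.15 in the XY inputs and 5.87 and 6.06 in the XY IPs (A_52_P533304, mm8 chr12:111987972-111988031). It was 4.98-fold higher in the XX IP (2.32 ± 0.39, adjusted p = 0.000702) and 3.35-fold higher in the XY IP (1.74 ± 0.39, adjusted p = 0.0048), although the XY difference turned to -0.12 on the 50th percentile and -0.19 with normexp. A second Eif5 probe, A_51_P244439, gave 2.86 in XX and 2.19 in XY, and A_52_P336080 gave 1.74 in XX and 0.90 in XY, the last not passing (adjusted p = 0.197). Eif1, which guards start-codon choice, was lower in both IPs. Its levels were 6.76 and 6.92 in the XX inputs, 4.21 and 5.13 in the XX IPs, 6.92 and 7.12 in the XY inputs and 4.72 and 5.58 in the XY IPs. The differences were -2.16 ± 0.46 (adjusted p = 0.00251) and -1.87 ± 0.46 (adjusted p = 0.00726). Eif5b, the GTPase that joins the subunits, was at 5.19 and 5.00 in the XX inputs, 3.07 and 1.56 in the XX IPs, 4.47 and 4.40 in the XY inputs and 2.26 and 1.38 in the XY IPs. The groups did not overlap, and Eif5b was 6.85-fold lower in the XX IP (adjusted p = 0.00125) and 6.14-fold lower in the XY IP (adjusted p = 0.00246). Its first IP was above its second in both sexes, whereas the second IP was the higher one for 35 of 40 factor genes above background on all 4 XX arrays and for 37 of 40 in XY, as for 89.0% and 89.7% of all such probes.

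The eIF2, eIF2B and eIF2 kinase families held no gene that was higher in either IP at its brightest probe. None of the 4 eIF2 genes passed in XX, against 2 lower in XY, where 22.8% of all tested probes were lower in XX and 20.6% in XY. Eif2s1, the alpha subunit that stress kinases phosphorylate, was at 3.28 and 3.29 in the XX inputs, 2.04 and 2.45 in the XX IPs, 2.41 and 2.59 in the XY inputs and -0.04 and 0.73 in the XY IPs. It gave -1.04 ± 0.41 in XX (adjusted p = 0.0553). The XY value, from 1 of 2 IPs above background, was -2.15 ± 0.41 (adjusted p = 0.00207). The difference between the sexes did not pass (1.12 ± 0.58, adjusted p = 0.384). Eif2s2, the beta subunit, gave -0.23 ± 0.37 in XX (adjusted p = 0.639), against -1.02 ± 0.37 in XY (adjusted p = 0.0465), and the XY call was lost without the first XY IP (adjusted p = 0.0621). Eif2s3x, the X-linked gamma subunit, gave -0.35 ± 0.45 in XX and 0.23 ± 0.45 in XY at its brightest probe, neither of which passed, and the XY sign turned on the 50th percentile, on the commonly detected probes and with normexp. A dimmer probe of it, A_51_P305532, was lower in the XY IP by -1.21 ± 0.42 (adjusted p = 0.0377), with 1 of 2 XY IPs above background. In XX it also passed (adjusted p = 0.0232), but with neither IP above background and an input below the lowest signal that counted as above background there, so that no size is given, and whether it also detects Eif2s3y was not tested.

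All 4 tested eIF2B genes were lower in the XY IP and 3 of them in the XX IP, with medians of -2.40 and -1.93, where 20.6% of all tested probes were lower in XY and 22.8% in XX. Eif2b1, Eif2b2 and Eif2b4 were chosen after their values were seen. Eif2b4, the delta subunit, was at 3.13 and 3.06 in the XX inputs and -1.21 and 1.02 in the XX IPs, and at 3.54 and 3.63 in the XY inputs and 0.58 and 1.79 in the XY IPs. Only 1 IP array of each sex was above background. The difference was -3.19 ± 0.64 (adjusted p = 0.00193) for XX, against -2.40 ± 0.64 (adjusted p = 0.0116) for XY, values that average in an IP array not above background and that lay between -4.30 and -2.07 in XX with each array left out. The XY call was lost without the first XY IP (adjusted p = 0.0868). Eif2b2, the beta subunit, was lower by -2.24 ± 0.44 in XX and -1.78 ± 0.44 in XY. Eif2b1, the alpha subunit, was at 2.57 and 2.07 in the XX inputs and 2.03 and 0.60 in the XX IPs, but at 2.58 and 1.97 in the XY inputs and -1.30 and -0.91 in the XY IPs. It was at least 3.50-fold lower in the XY IP (adjusted p = 0.000511) and did not pass in XX (-1.01 ± 0.51, adjusted p = 0.119). The difference between the sexes did not pass (adjusted p = 0.100), and with the XY IPs at background its size was not measured. Of the 4 eIF2 kinases 1 was called lower in XX and 2 in XY, against 22.8% and 20.6% of all tested probes, with the IPs at background for both genes. For Eif2ak3, the other XY call, no fold is given, since its input lay below the lowest signal that counted as above background on the IP arrays. The interferon-induced Eif2ak2 was lower in both sexes and not above background on any IP array, so that it was at least 1.70-fold lower in XX and at least 1.06-fold lower in XY.

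The eIF3 complex, which holds the small subunit and mRNA together, lay mostly below its input. Of its 12 genes, 9 were lower in the XX IP, 4 of them depleted, and 8 were lower in the XY IP, 3 of them depleted. Of all tested probes 22.8% were lower in XX and 20.6% in XY, and of those above background on all 4 arrays with an input level of 4 or more 47.3% and 42.2%. At its brightest probe no eIF3 gene was higher in either sex, and the medians were -1.58 and -1.40. Eif3f, one of the outer subunits, had levels of 4.91 and 4.62 in the XX inputs, 1.35 and 1.85 in the XX IPs, 4.94 and 4.68 in the XY inputs and 2.18 and 2.79 in the XY IPs (A_51_P516452, mm8 chr7:108731415-108731836). All 4 IPs lay below all 4 inputs. Eif3f was 8.98-fold lower in XX (-3.17 ± 0.41, adjusted p = 0.000184) and 5.02-fold lower in XY (-2.33 ± 0.41, adjusted p = 0.00134).

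Eif3e, an outer subunit linked to translation of selected mRNAs, had levels of 5.29 and 5.48 in the XX inputs, 3.24 and 3.55 in the XX IPs, 4.89 and 4.98 in the XY inputs and 2.47 and 3.28 in the XY IPs. The groups did not overlap in either sex, with differences of -1.99 ± 0.41 (adjusted p = 0.00236) and -2.06 ± 0.41 (adjusted p = 0.00266). Eif3l was lower by -2.28 ± 0.40 in XX and -1.53 ± 0.40 in XY. Eif3g, which sits near the mRNA entry side and was chosen after its values were seen, was lower by -2.09 ± 0.42 and -2.04 ± 0.42. Eif3k was at least 2.36-fold lower in XX. Eif3a, the largest subunit and a core of the complex, was near its input at its brightest probe (-0.20 ± 0.38 in XX, -0.50 ± 0.38 in XY, neither passing). Eif3j1, a loosely bound subunit that was likewise chosen after its values were seen, gave 0.22 ± 0.38 and 0.48 ± 0.38 at its brightest probe, signs that turned on the 50th percentile and with normexp, and in XX also after quantile normalization and on the commonly detected probes. Its 2 dimmer probes passed as higher in XX, A_51_P211341 by 1.39 ± 0.38 (adjusted p = 0.0102) and A_52_P654965, with 1 of 2 IPs above background, by 1.19 ± 0.43 (adjusted p = 0.0384), and neither passed in XY. Its near-identical copy Eif3j2 cannot be told apart from it.

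The eIF4 family, which reads the cap and unwinds the leader, had genes in both directions. Of 11 genes, 2 were higher and 5 lower in the XX IP, and 1 higher and 3 lower in the XY IP. Among all tested probes 25.9% were higher and 22.8% lower in XX, and 20.2% and 20.6% in XY. Eif4e, the cap-binding protein, was at 3.17 and 3.12 in the XX inputs and 5.75 and 6.27 in the XX IPs, and at 3.03 and 2.79 in the XY inputs and 3.93 and 4.55 in the XY IPs (A_51_P131895, mm8 chr3:138494143-138494202). The IPs stood above the inputs in both sexes. It was 7.30-fold higher in XX (2.87 ± 0.41, adjusted p = 0.000268) and 2.52-fold higher in XY (1.33 ± 0.41, adjusted p = 0.0221), but the XY value turned to -0.53 on the 50th percentile and -0.46 with normexp. The difference between the sexes did not pass (1.54 ± 0.58, adjusted p = 0.197). Without the second XY IP the XY call was lost (1.02, adjusted p = 0.0638).

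The helicase genes Eif4a1 and Eif4a2 differed in direction in XX. Eif4a2 was at 5.25 and 5.43 in the XX inputs and 6.28 and 7.10 in the XX IPs, and at 4.85 and 5.07 in the XY inputs and 5.13 and 5.81 in the XY IPs. Eif4a1 was at 4.87 and 4.98 in the XX inputs and 3.19 and 3.87 in the XX IPs, and at 5.19 and 5.22 in the XY inputs and 3.87 and 4.70 in the XY IPs. In XX all IPs of Eif4a2 were above its inputs and all IPs of Eif4a1 below. Eif4a2 was higher by 1.35 ± 0.43 (adjusted p = 0.0225), a sign that turned on the 50th percentile (-0.65) and with normexp (-0.70), and Eif4a1 was lower by -1.40 ± 0.43 (adjusted p = 0.0189). Neither call held without 1 IP: for Eif4a2 the second XX IP (0.95, adjusted p = 0.102), for Eif4a1 the first (-1.06, adjusted p = 0.0871). In XY neither passed, at 0.51 ± 0.43 and -0.92 ± 0.43.

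The cofactor Eif4b, which stimulates eIF4A, was at 3.57 and 3.53 in the XX inputs, 1.66 and 2.22 in the XX IPs, 3.47 and 3.45 in the XY inputs and 1.67 and 2.10 in the XY IPs. It was lower by -1.61 ± 0.40 (adjusted p = 0.00622) and -1.57 ± 0.40 (adjusted p = 0.00892). The scaffold Eif4g1 was lower in XX (-1.38 ± 0.48, adjusted p = 0.032) with 1 of 2 XX IPs above background, a call that was lost without the first XX IP (-0.76, adjusted p = 0.192), and gave -1.22 ± 0.48 in XY (adjusted p = 0.0597). Eif4g2, a scaffold that does not bind eIF4E, gave 0.92 ± 0.42 in XX and 0.05 ± 0.42 in XY, neither of which passed, and both signs turned on the 50th percentile and with normexp, the XY sign also on the commonly detected probes. Eif4e2, a cap-binding repressor chosen after its values were seen, was at 3.48 and 3.21 in the XX inputs, 0.40 and 1.65 in the XX IPs, 3.13 and 3.13 in the XY inputs and -1.15 and 1.07 in the XY IPs, with 1 of 2 IP arrays above background in each sex. The differences were -2.32 ± 0.64 (adjusted p = 0.0111) and -3.17 ± 0.64 (adjusted p = 0.00279), and with each array left out they lay between -2.94 and -1.70 in XX and between -4.28 and -2.07 in XY. Without the first XX IP its XX call was lost (adjusted p = 0.110). Eif4a3, which marks exon junctions and not the cap, was at least 3.28-fold lower in the XY IP.

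**Figure D2:**
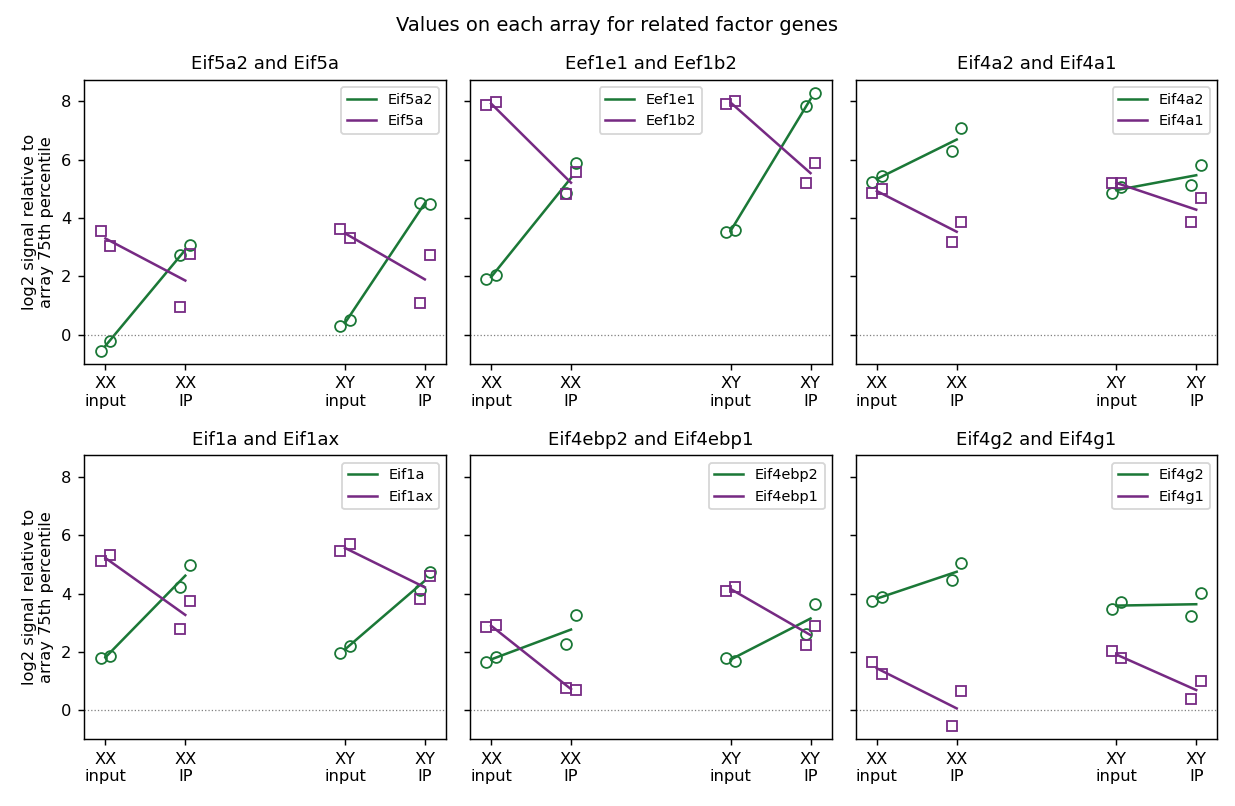
Level on each array (log2 signal relative to the array's 75th percentile, y axis) in XX and XY inputs and IPs (x axis) for pairs of related factor genes, with lines joining group means. Points are single arrays, and levels of different genes come from different probes and cannot be set against each other, and the pairs were chosen after the values were seen. For Eif5a2 and Eif5a, Eef1e1 and Eef1b2, and Eif1a and Eif1ax the line of the first gene slopes up and that of the second down.

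Of 4 genes for proteins that bind eIF4E, 2 were lower in XX, and 1 was lower and 1 higher in XY. Beside these counts, 22.8% of all tested probes were lower in XX, and 20.6% were lower and 20.2% higher in XY. Eif4ebp1, which keeps eIF4E from the scaffold, was lower at its brightest probe. Its levels were 2.87 and 2.93 in the XX inputs, 0.77 and 0.68 in the XX IPs, 4.10 and 4.22 in the XY inputs and 2.26 and 2.91 in the XY IPs. It was 4.51-fold lower in XX (adjusted p = 0.00108), with 1 of 2 IPs above background, and 2.99-fold lower in XY (adjusted p = 0.00839). Eif4ebp2, a repressor of the same kind chosen after its values were seen, gave 1.02 ± 0.48 in XX (adjusted p = 0.0938) and was higher in XY (1.41 ± 0.48, adjusted p = 0.0339). Both signs turned on the 50th percentile and with normexp, and the XY call was lost without the second XY IP (0.89, adjusted p = 0.148).

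Among the genes named for elongation factors Eef1e1 alone was enriched at its brightest probe. Of the 5 tested eEF1 genes 1 was higher and 3 were lower in each sex, with medians of -2.23 in XX and -1.45 in XY. Over all tested probes 25.9% were higher and 22.8% lower in XX, and 20.2% and 20.6% in XY. For probes above background on all 4 arrays with an input level of 4 or more, 47.3% were lower in XX and 42.2% in XY. Eef1b2, the exchange factor that recharges eEF1A, was at 7.88 and 7.97 in the XX inputs, 4.84 and 5.58 in the XX IPs, 7.91 and 8.01 in the XY inputs and 5.20 and 5.88 in the XY IPs (A_51_P412595, mm8 chr1:63113115-63113174). It was 6.56-fold lower in XX (-2.71 ± 0.43, adjusted p = 0.000454) and 5.35-fold lower in XY (-2.42 ± 0.43, adjusted p = 0.00129). Each input lay more than 2 log2 units above each IP of its sex. The partner subunits Eef1d and Eef1g were lower by -2.25 ± 0.41 and -2.23 ± 0.43 in XX and by -2.07 ± 0.41 and -1.45 ± 0.43 in XY. The XY call of Eef1g was lost without the first XY IP (-1.01, adjusted p = 0.0762).

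Eef1a1, which delivers aminoacyl-tRNA and is among the most abundant mRNAs of a cell, did not pass. Its levels were 7.10 and 7.97 in the XX inputs, 7.41 and 8.32 in the XX IPs, 7.77 and 8.17 in the XY inputs and 8.26 and 9.06 in the XY IPs. In XX the groups overlapped. The differences were 0.33 ± 0.49 (adjusted p = 0.596) and 0.69 ± 0.49 (adjusted p = 0.274), and their signs turned on the 50th percentile and with normexp, in XX also on the commonly detected probes. Its second probe gave -0.83 ± 0.48 and -0.24 ± 0.48.

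Eef1e1, a small protein of the aminoacyl-tRNA synthetase complex that carries the eEF1 name, was at 1.90 and 2.05 in the XX inputs and 4.87 and 5.88 in the XX IPs. In XY it was at 3.53 and 3.59 in the inputs and 7.86 and 8.30 in the IPs (A_51_P164420, mm8 chr13:38653675-38653734). All IPs were above all inputs. It was 10.6-fold higher in XX (3.40 ± 0.44, adjusted p = 0.000171) and 22.9-fold higher in XY (4.52 ± 0.44, adjusted p = 4.99e-05). The difference between the sexes did not pass (-1.12 ± 0.62, adjusted p = 0.41), whereas the input itself was higher in XY by 1.59 on the log2 scale (XX minus XY -1.59 ± 0.44, adjusted p = 0.034), a comparison that crosses the slides and no longer passed with normexp (adjusted p = 0.103) or on the 50th percentile (adjusted p = 0.292). Eef2, which moves the ribosome from codon to codon, was at 4.41 and 3.40 in the XX inputs, 0.80 and 1.89 in the XX IPs, 5.08 and 4.62 in the XY inputs and 1.64 and 2.56 in the XY IPs. It was 5.91-fold lower in XX (adjusted p = 0.00216), with 1 of 2 IPs above background, and 6.72-fold lower in XY (adjusted p = 0.00203). Its kinase Eef2k, chosen after its values were seen, passed as higher in XY (1.51 ± 0.54, adjusted p = 0.0428), yet neither XY IP was above background, so that no fold is given, the call was lost without either XY IP (adjusted p = 0.109 and 0.0859), and the sign turned on the 50th percentile and after quantile normalization.

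Eif5a2 had the largest XY fold of the factor genes after Eef1e1. It encodes the second isoform of eIF5A, which relieves stalled ribosomes and carries hypusine. At probe A_52_P181759 (mm8 chr3:28989596-28989655) its levels were -0.56 and -0.21 in the XX inputs, 2.74 and 3.08 in the XX IPs, 0.28 and 0.51 in the XY inputs and 4.52 and 4.50 in the XY IPs. All IPs were above all inputs. Eif5a2 was 9.80-fold higher in XX (3.29 ± 0.39, adjusted p = 0.000117) and 17.3-fold higher in XY (4.11 ± 0.39, adjusted p = 4.32e-05). Its second probe, 1530 bases upstream, gave 4.26 ± 0.42 and 4.11 ± 0.42. The ubiquitous isoform Eif5a was at 3.55 and 3.05 in the XX inputs, 0.94 and 2.77 in the XX IPs, 3.63 and 3.32 in the XY inputs and 1.08 and 2.71 in the XY IPs. Its IPs lay below its inputs but far from each other, with 1 of 2 above background in each sex, and neither difference passed (-1.44 ± 0.64, adjusted p = 0.0796, and -1.58 ± 0.64, adjusted p = 0.0666).

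Of the 3 tested poly(A)-binding proteins of the Pabpc family, through which DAZL is known to act, 0 were higher in either IP, and 1 was lower in XX, where 22.8% of all tested probes were lower. Pabpc1, the main cytoplasmic form, was at 6.73 and 6.97 in the XX inputs, 5.62 and 5.92 in the XX IPs, 7.06 and 7.15 in the XY inputs and 6.66 and 7.19 in the XY IPs. The XX groups were apart and the XY groups overlapped. It was lower by -1.08 ± 0.39 in XX (adjusted p = 0.0399), a call lost without the first XX IP (-0.93, adjusted p = 0.0987), and gave -0.18 ± 0.39 in XY. Pabpc4, an inducible form, gave -0.87 ± 0.47 and -0.10 ± 0.47, neither of which passed. Of a list of partners of poly(A)-binding protein that also holds the nuclear poly(A)-binding protein Pabpn1, none of them factors by name, 3 of 6 were higher in each sex, against 25.9% of all tested probes in XX and 20.2% in XY, and 0 were lower. Besides Paip1 and Paip2 these were Paip2b in XX and Pabpn1 in XY (1.86 ± 0.44, adjusted p = 0.00607). Paip1, which links the tail to eIF4A, was higher by 3.08 ± 0.41 in XX (adjusted p = 0.00021), against 1.98 ± 0.41 in XY (adjusted p = 0.00322), and the repressor Paip2 by 1.74 ± 0.44 and 1.87 ± 0.44. These partners were named after their values were seen.

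The 4 Argonaute genes, which bind small RNAs in silencing, are members only because the files still call them Eif2c1 to Eif2c4. Ago4 was at 0.18 and 0.27 in the XX inputs, 3.39 and 3.95 in the XX IPs, -1.48 and -1.16 in the XY inputs and 1.48 and 2.26 in the XY IPs (A_52_P27117, mm8 chr4:125991956-125992015). IPs were above inputs in both sexes, and XX was above XY in both kinds of sample. It was 10.9-fold higher in the XX IP (3.45 ± 0.43, adjusted p = 0.000145) and 9.11-fold higher in the XY IP (3.19 ± 0.43, adjusted p = 0.000262), with no difference between the sexes that passed (0.26 ± 0.60, adjusted p = 0.889). On the 50th percentile both calls were lost, at 1.45 (adjusted p = 0.0838) for XX, against 1.32 (adjusted p = 0.106) for XY. Ago3, chosen after its values were seen, was higher in XX (1.30 ± 0.40, adjusted p = 0.0186), a sign that turned to -0.71 on the 50th percentile, and gave -0.36 ± 0.40 in XY. Ago1 and Ago2 passed in neither sex.

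**Figure D3:**
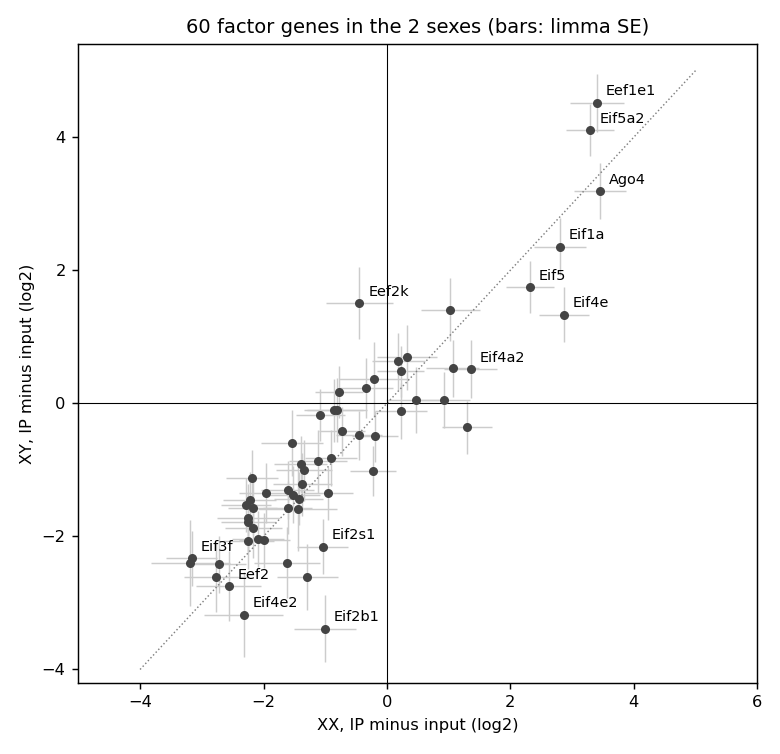
Difference between IP and input (log2) in XX (x axis) and XY (y axis) for the 60 tested factor genes, with limma standard errors as bars and equality as a dotted line. Eif5a2, Eef1e1, Ago4 and Eif1a lie beyond 2 on both axes. Points of genes with IPs at background, such as Eif2b1 in XY, are not measured levels.

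The enrichment of 1 factor probe differed between the sexes (0.909%, against 2.17% of all tested probes), with higher enrichment in XX, where 9 had an unadjusted p under 0.05, and that of 0 probes was higher in XY by limma (against 1.12%), where 1 had an unadjusted p under 0.05. The probe was A_52_P283674 of Eif4ebp1, and its XX IPs and XX inputs were all at background. At this probe the levels were -4.16 and -4.36 in the XX inputs, -0.96 and -1.75 in the XX IPs, -1.01 and -0.61 in the XY inputs and -0.82 and -0.30 in the XY IPs, and only the XY inputs were above background. The brightest Eif4ebp1 probe showed no such difference (-0.59 ± 0.56, adjusted p = 0.677). Between the inputs, which lay on different slides, 5 factor probes were higher in XX (4.55%, against 5.87%) and 3 in XY (2.73%, against 6.08%). Those higher in XX were 3 probes of Ago4 and 2 of Eif4enif1, which shuttles eIF4E to the nucleus. The differences were 1.46 and 1.54 at the Ago4 probes whose XY inputs were above background and 1.46 at such a probe of Eif4enif1, while the others, A_52_P8444 of Ago4 and A_52_P189449 of Eif4enif1, had XY inputs at background, so that the XX inputs exceeded them by at least 3.81-fold for the first, and for the second by at least 2.33-fold. The 1.54 of Ago4, at A_52_P27117, no longer passed the limma test with normexp (adjusted p = 0.0618) or on the 50th percentile (adjusted p = 0.277). Those higher in XY were Eef1e1, probe A_51_P305532 of Eif2s3x (XX minus XY -2.31 ± 0.42, adjusted p = 0.00323) and probe A_52_P283674 of Eif4ebp1, whose XY inputs exceeded the XX inputs by at least 4.45-fold.

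Probes of the same gene mostly pointed the same way but not by the same amount. In XX 12 genes had more than 1 probe above background on all 4 arrays, and in 10 of them all such probes had the same sign. The exceptions were Eef1a1 and Eif4g2, whose 3 probes gave -0.05, 0.92 and 1.17 in XX, the last passing as higher. In XY this held for 6 of 7 genes. None of these genes had one such probe that passed as higher and another that passed as lower. Over all tested probes 4 genes did in XX and 0 in XY. These were Eif4ebp1, Eef2 (A_52_P605455, 2.31), Eif2b4 (A_52_P425589, 2.13) and Eif4e2 (A_52_P580842, 1.76), and their probes that passed as higher were above background on no XX IP, or in Eif4e2 on 1. In XX the probes of 7 of the 12 genes lay more than 1 log2 unit apart, with a median spread of 1.14 and a highest of 2.18, and in XY those of 1 of the 7 genes, with a median of 0.57 and a highest of 1.32. Eif4e was enriched at the probe nearer its end, while the probe 484 bases upstream (A_52_P310981) gave 0.82 ± 0.42 in XX and 0.39 ± 0.42 in XY, neither passing and both with a sign that turned on the 50th percentile and with normexp. Eif3a was lower at its upstream probe (A_51_P229280, -1.74 ± 0.39 and -1.82 ± 0.39) and near its input at the probe 8423 bases downstream. Eif5b was depleted at A_51_P172441, while A_51_P182443, 34165 bases downstream, gave -0.60 ± 0.40 in XX and -1.95 ± 0.40 in XY. No exon annotation of mm8 was used, so whether such probes lie in the same transcript was not tested.

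**Figure D4:**
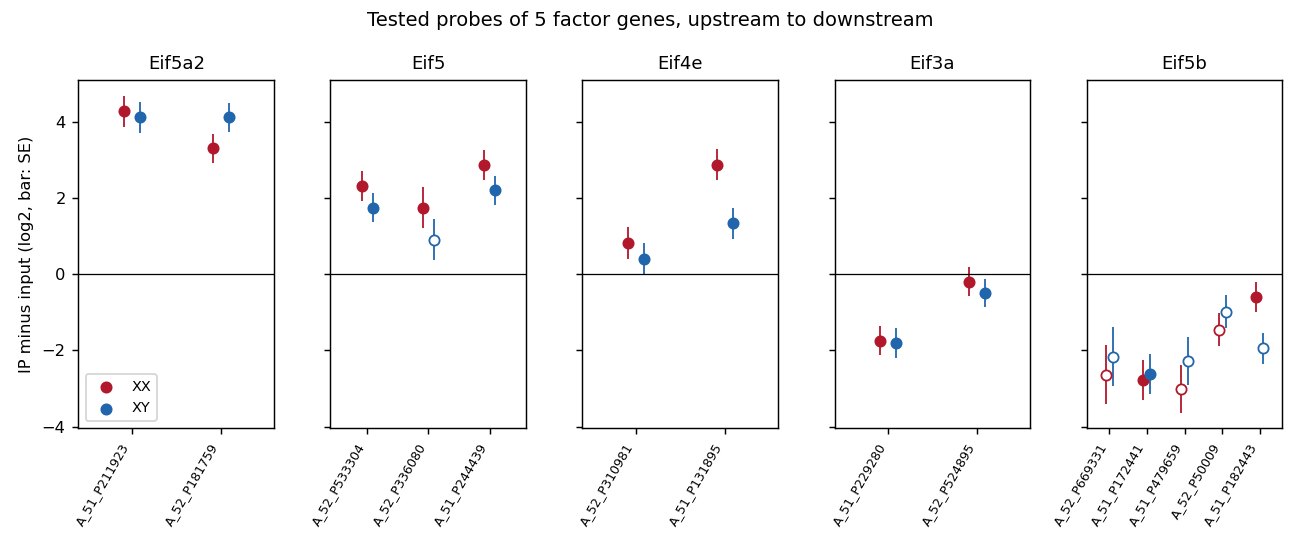
Difference between IP and input (log2, y axis, bars are limma SE) for each tested probe of 5 factor genes, ordered from upstream to downstream along the gene (x axis), XX in red and XY in blue. Filled points are probes above background on all 4 arrays of the sex and open points are not. All Eif5a2 probes lie above 0 and all Eif3a and Eif5b probes below, and the Eif4e probes differ by 2.04 in XX.

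Input level and call were tied to each other by the filter on dim probes, since a 4-fold fall that ends above background needs a bright input. Brightness is taken here as a property of the probe and not to rank mRNAs. Among genes above background on all 4 arrays, the input level of the 8 depleted XX genes was 4.76 to 8.28 and that of the 6 enriched ones -0.38 to 4.86. In XY the 7 depleted genes had input levels of 4.44 to 7.96 and the 4 enriched ones -1.32 to 3.56. Depleted genes with an IP array at background had lower inputs, down to 1.42 in XX (Eif2ak2) and 1.89 in XY (Eif2b5). Bright probes at large were depleted more often too, and the input level is itself part of the difference. Over probes above background on all 4 arrays, with the limit of 4 set after seeing the data, 9 of 24 factor probes with an XX input level of 4 or more were depleted (37.5%), against 25.2% of 1508 probes in all, and 17 were lower (70.8%), against 47.3%. In XY 8 of 28 were depleted (28.6%), against 18.5% of 1602, and 19 were lower (67.9%), against 42.2%. Below that level 9 of 33 were enriched in XX (27.3%, against 32.8%) and 6 of 20 in XY (30.0%, against 23.8%). Across these factor probes the input level and the difference had a Pearson correlation of -0.67 in XX and -0.60 in XY, and across all such probes -0.63 and -0.58. Over the 45 factor probes above background on all 8 arrays the median change was -0.87 in XX, against -0.50 in XY, and over all 4200 such probes 0.56 and 0.41.

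**Figure D5:**
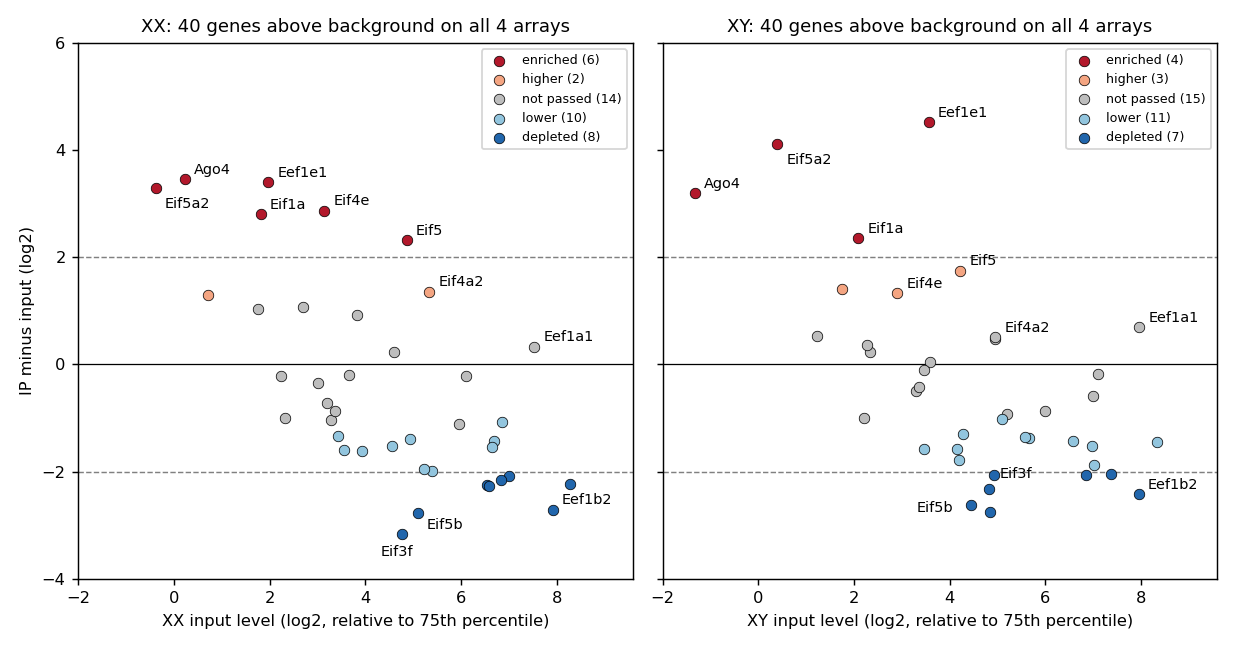
Difference between IP and input (log2, y axis) against input level (log2 relative to the 75th percentile, x axis) for the 40 factor genes above background on all 4 arrays of each sex, coloured by call, with dashed lines at 4-fold. Depleted genes sit at input levels above 4 in both sexes, as the limit to genes above background requires of most 4-fold falls, while Eef1a1, at an input level of 7.54 in XX, lies above 0, though below it on the 50th percentile and with normexp.

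Many of the bright factors have mRNAs of the 5′ TOP class, which begin with a run of pyrimidines and are translated under mTOR control. None of the 10 TOP genes listed (Eef1a1, Eef1b2, Eef1d, Eef1g, Eef2, Eif3e, Eif3f, Eif3h, Eif4b and Pabpc1) was higher in either IP. In XX 9 of the 10 were lower, 5 of them depleted, with a median of -2.11, and the exception was Eef1a1. Of all tested probes 22.8% were lower in XX, and 47.3% of those above background on all 4 arrays with an input level of 4 or more, as 8 of the 10 had. In XY 7 were lower, 5 of them depleted, with a median of -1.82, and Eef1a1, Eif3h and Pabpc1 did not pass. The shares of all probes were 20.6% and 42.2%, where 9 of the 10 had such an input level. Over all 60 factor genes the median was -1.06 in XX and -0.96 in XY. The starts of these genes are shown because the class is defined by its first bases. RefSeq start sites (GRCm38.p6) were matched for 5 of the 10, and each window holds 15 bases before the start and 15 from it on, read along the transcript. Capitals mark the first run of a C and at least 4 further C or T that begins within 10 bases of the start, searched on the transcript strand alone. The first 5 windows are TOP genes and the last 3 are from the 4 genes enriched in both IPs. The remaining gene of those 4 has no window shown here, so the 3 are not the full enriched set.
Eef1b2, chr1:63176816-63176845, plus strand: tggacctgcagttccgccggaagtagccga
Eef2, chr10:81176616-81176645, plus strand: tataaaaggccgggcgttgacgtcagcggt
Eif3f, chr7:108934400-108934429, plus strand: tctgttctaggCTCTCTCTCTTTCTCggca
Eif4b, chr15:102073758-102073787, plus strand: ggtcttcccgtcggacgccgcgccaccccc
Eef1a1, chr9:78481710-78481739, minus strand: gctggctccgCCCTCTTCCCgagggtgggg
Ago4, chr4:126533444-126533473, minus strand: cgcgcgccgCCTCCCgctcccgttccagct
Eef1e1, chr13:38659014-38659043, minus strand: tcaaggtcctagctgtgcaggccccgcctc
Eif5a2, chr3:28781262-28781291, plus strand: ggcgggcccgggctgggcgggccggggcgg
A run was found for Eif3f and Eef1a1 of the TOP genes and for the enriched Ago4. Such a run was present in 29.7% of all 32851 promoters and in 19 of the 63 promoters of tested factor genes (30.2%). Counted by gene, where a run in any of its promoters was enough, it was present in 15 of the 47 tested factor genes with a promoter in the table (31.9%). It was present in 7 of 21 lower and 2 of 7 higher genes in XX, and in 7 of 23 and 2 of 7 in XY. The annotated start used here can lie some bases from the start in gonads. A window without capitals says only that no such run begins within 10 bases of the annotated start. The Eif4b window holds such runs beyond that limit.

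Other genes of translation, taken as a list of 46 of which 44 were tested, included both higher and lower ones. Of all tested probes 25.9% were higher and 22.8% lower in XX, against 20.2% and 20.6% in XY. In XX 9 were higher, 3 of them enriched, and 11 were lower, 4 of them depleted, with a median of -0.30. In XY 7 were higher, 3 of them enriched, and 9 lower, 4 of them depleted, with a median of -0.24. Ppp1r15b, which brings the phosphatase to eIF2, was higher by 3.49 ± 0.44 in XX (adjusted p = 0.000157), against 3.87 ± 0.44 in XY (adjusted p = 0.000106). The helicase Ddx3x was higher by 1.80 ± 0.39 and 2.42 ± 0.39, and the kinase Mtor by 1.09 ± 0.41 and 2.24 ± 0.41, with 1 of 2 XX IPs above background for Mtor. Values of these genes on other scalings are not given here. On the 50th percentile the median of all tested probes fell from 0.09 to -1.92 in XX and from -0.04 to -1.90 in XY, so that such rises are smaller there or turn. Of 8 mitochondrial translation factors, 0 were higher and 4 were lower in each sex, and 1 of the 8 was above background on both IPs. These genes were named after their values were seen.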

How the data were processed

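RNA of 8 samples was hybridized to 1-colour Agilent whole mouse genome arrays after labelling of 50 ng input or 1 ng precipitated RNA with Cy3, with 5% of each lysate kept as input per the labels. The deposited scanner files hold a background-subtracted intensity for each spot and other marks per the file headers (above background, saturated, outlier), made with Feature Extraction 9.5.3.1, while the labels give 9.5. The authors also deposited log2 values scaled to the 75th percentile, which gave the same counts of factor probes called. Intensities, with a floor of 1, were averaged over spots without outliers, and log2 values were taken relative to the 75th percentile of non-control probes. Probes left out as outliers numbered 73, and 0 were saturated. Probes that both arrays of any group showed above background were tested with limma 3.58.1 in R 4.3.3, in 1 fit of 4 group means, with Benjamini-Hochberg adjustment over 18253 probes and two-sided tests. Residual degrees of freedom were 4 and prior degrees of freedom 7.81. A call needed an adjusted p under 0.05 and, where said, a 4-fold change. The fit was tested on simulated data. With 2 arrays per group their number limits the precision. Tables and figures were made with Python 3.11.15.

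Old gene names were updated by accession or older symbol in the RefSeq table of GRCm38.p6, and Eif6 was not analysed here. Positions are on mm8 per the file headers. Eef1a2, Eif2b3, Pabpc4l (Gm5088) and Pabpc5 had no tested probe. Members and gene lists were chosen with earlier results of these data known. Named were a list of core factors, the 5 largest rises and falls per sex among called genes above background on all 4 arrays, and members called between the sexes or inputs. Others are marked where they are named, except Eef1g, Eif3h, Eif3k, Eif4a3, Eif2ak2, Eif2ak3 and Eif2b5. Alternatives were normexp with an offset of 50, quantile normalization, the 50th percentile, a percentile over probes above background on all 8 arrays, other filters, each sex's arrays alone, the authors' table, a replicate block, and leaving out each array.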

Additional observations from a re-analysis of the deposited data

Results flagged for a closer look

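One factor probe had an IP effect that differed between the sexes in the limma test of the difference itself. This was probe A_52_P283674 of Eif4ebp1, with a difference of 2.65 ± 0.61 (XX minus XY, log2, adjusted p = 0.0359). Its IP lay above its input by 2.91 ± 0.43 in XX and by 0.26 ± 0.43 in XY. The XX inputs and all 4 IPs were at background at this probe, where background lies higher on the IP arrays than on the input arrays, so that neither XX value is a measured level. The adjusted p under 0.05 was lost without any 1 of the 4 inputs and without the first IP of either sex, and was kept without the second XX IP or the second XY IP. It was also lost after quantile normalization (0.62, adjusted p = 0.65), with normexp (0.78, adjusted p = 0.325), on the 50th percentile (2.51, adjusted p = 0.267), scaled to the commonly detected probes (2.55, adjusted p = 0.113) and with no filter on dim probes. The brighter probe of Eif4ebp1 gave -0.59 ± 0.56 (adjusted p = 0.677). The sexes lay on different slides.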

How the results depend on the processing

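The median of the factor probes stayed below that of all tested probes under every alternative that could move the gap, which a common scaling, the replicate block and a fit limited to the arrays compared cannot, and the gap was -0.91 in XX and -0.63 in XY in the reported setting. In XX the gap was -2.34 with no filter on dim probes, -1.42 over probes above background on all 8 arrays, -0.52 after quantile normalization and -0.94 to -0.73 with each array left out. In XY it was -2.29, -0.91, -0.39 and -0.63 to -0.56, and -0.96 with normexp. Depleted probes in XX (18) numbered 35 with normexp, 9 over the commonly detected probes alone, 28 after quantile normalization, 70 on the 50th percentile and 10 to 23 with each array left out, the lowest without the first XX IP. Depleted probes in XY (19) numbered 32, 7, 22, 64 and 11 to 22 in that order, the lowest without the first XY IP. Enriched probes in XX (14) numbered 45 with no filter, 0 with normexp, 8 over the commonly detected probes, 1 on the 50th percentile and 12 to 15 with each array left out, and those in XY (8) numbered 39, 1, 6, 3 and 8 to 9. Probes higher in the XX inputs (5) numbered 0 with no filter and on the 50th percentile, 11 with normexp, 2 over the commonly detected probes, 29 in a fit of the inputs alone and 0 to 11 with each array left out. Those higher in the XY inputs (3) numbered 7 with normexp, 1 over the commonly detected probes, 17 in the fit of the inputs alone, 5 scaled to the commonly detected probes and 2 to 4 with each array left out. The count of 1 probe with higher enrichment in XX was 0 with no filter, with normexp, over or scaled to the commonly detected probes and on the 50th percentile, and 0 to 2 with each array left out, and the 0 with higher enrichment in XY was 1 after quantile normalization. With a replicate block, which pairs input and IP of the same number, the first count was 4, and the enriched and depleted counts were unchanged at 14, 18, 8 and 19. The numbers were not shown to pair the samples, since deviations of same-numbered arrays correlated at 0.072 in XX and 0.090 in XY over all tested probes, and at 0.031 and 0.138 over those above background on all 8 arrays.

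Over 52 probes of 41 genes, 1710 values were recomputed, of which 1432 kept their direction and side of the threshold, 146 lost the threshold, 79 gained it and 53 turned sign. On the 50th percentile the XX difference turned for Ago3 (-0.71), Eef1a1 (-1.68), Eif3j1 (-1.78), Eif4a2 (-0.65), Eif4e A_52_P310981 (-1.18), Eif4ebp2 (-0.98) and Eif4g2 (-1.09), and the XY difference for Eef1a1 (-1.17), Eef2k (-0.36), Eif2s3x (-1.63), Eif3j1 (-1.38), Eif4a2 (-1.35), both Eif4e probes (-1.47 and -0.53), Eif4ebp1 A_52_P283674 (-1.61), Eif4ebp2 (-0.46), Eif4g2 (-1.82) and Eif5 (-0.12). With normexp it turned in XX for Eef1a1 (-1.75), Eef2k (0.17), Eif3j1 (-1.71), Eif4a2 (-0.70), Eif4e A_52_P310981 (-0.98), Eif4ebp2 (-0.46) and Eif4g2 (-0.96), and in XY for Ago3 (0.26), Eef1a1 (-1.48), Eif2s3x (-1.07), Eif3j1 (-1.66), Eif4a2 (-1.52), both Eif4e probes (-1.41 and -0.46), Eif4ebp2 (-0.22), Eif4g2 (-1.62) and Eif5 (-0.19). After quantile normalization it turned in XX for Eif3j1 (-0.19) and in XY for Eef2k (-0.35) and Eif4ebp1 A_52_P283674 (-0.15), and scaled to the commonly detected probes in XX for Eef1a1 (-0.10) and Eif3j1 (-0.20) and in XY for Eif2s3x (-0.092), Eif4ebp1 A_52_P283674 (-0.071) and Eif4g2 (-0.28). With each array left out, the range crossed 0 in XX for Eef1a1 (-0.12 to 0.78) and Eef2k (-1.26 to 0.36), and in XY for Eef1a1 A_52_P299505 (-0.69 to 0.22), Eif2s3x (-0.26 to 0.73), Eif4ebp1 A_52_P283674 (-0.0036 to 0.52), Eif4g2 (-0.34 to 0.44), Pabpc1 (-0.44 to 0.087) and Pabpc4 (-0.68 to 0.48). No gene called depleted turned sign under the alternatives run for it. The 50th percentile and the scaling to commonly detected probes lower every difference alike, so that no fall could turn sign there. No alternatives were run for Eif2ak2, Eif2b5, Eif3k and Eif4a3. Without the first XX IP the XX call of Eif3h was lost as well (-0.97). For single genes, calls lost with 1 array left out are named for IPs, and those lost without 1 input mostly are not. Across the values recomputed the threshold was lost more often without 1 input than without 1 IP. Eif5a2 in XX fell to 1.29 on the 50th percentile and 1.27 with normexp, Eef1e1 to 1.39 and 1.25, Ago4 to 1.45 and 1.29, Eif1a to 0.80 and 0.75, Eif4e to 0.86 under both, and Eif5 to 0.31 and 0.32. The cause of these shifts was not tested. The dimness of the IP arrays limits what can be said of genes that were not above background there.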
